A study of Mus musculus with 2 samples.

Results

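The 10 genes described here carry the core of MHC class I antigen presentation in the mouse, and they were taken by name: H2-K1, H2-D1, H2-Q4, H2-T23, B2m, Tap1, Tap2, Tapbp, Psmb8 and Psmb9. All 10 were among the 18595 genes of the expression table and were read in every cell cluster of both libraries. Class I molecules hold short peptides from proteins made inside the cell and show them to CD8 T cells and natural killer cells. The immunoproteasome cuts the proteins, the TAP transporter moves the peptides into the endoplasmic reticulum, and tapasin helps load them onto a heavy chain paired with beta-2 microglobulin. Interferon gamma is the best known inducer of the pathway, and NF-kB also acts on class I promoters. Nearly all nucleated cells carry class I, with lymphocytes and endothelium among the strongest and resting epithelium weaker.

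The cells came from mouse esophagus freed of its muscle layer, and all animals were hybrids of C57BL/6J and BALB/c. The control library had the genotype Keap1 floxB/floxB, and the Keap1 cKO library had the genotype K5CreERT2::Keap1 floxB/floxB. Both groups therefore carried the floxed Keap1 allele, and the Cre is driven by the keratin 5 promoter, which is active in basal epithelial cells. Keap1 is the adaptor that sends the transcription factor NRF2 for degradation. The labels give neither the age or number of the animals nor the time after induction of the Cre.

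There was 1 library per genotype: 2472 control cells with 30501227 UMIs (unique molecular identifiers, each standing for 1 captured RNA molecule) and 2381 Keap1 cKO cells with 26036522 UMIs. The median cell held 11293.5 and 8193 UMIs, and 5 cell barcodes occurred in both libraries. No test across genotypes was possible, so all differences below describe these libraries, and all intervals are exact 95% intervals that cover counting error only. Levels are UMIs per 1000000 UMIs (CPM), summed over the cells of a cluster. Ratios are log2 of Keap1 cKO over control levels, and a gene was compared where it had at least 20 UMIs over both libraries and the cluster had at least 50 cells in each. A ratio of at least 1.5-fold is counted as higher or lower for description only.

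Cell types are the authors' labels for 19 clusters. The epithelial clusters 4, 13 and 9 held the keratinocyte markers, 9 genes that summed to between 16314 and 72196 CPM in each library, against 413 to 1177 in the T cell, myeloid, fibroblast, endothelial and red blood cell clusters 1, 2, 3, 5, 7, 8 and 11. Krt5 and Krt14, keratins of basal cells, stood at 4689 and 3595 in control cluster 4. Krt13, a keratin of the upper layers, stood at 6076 there, at 24810 in control cluster 13 and at 40523 in control cluster 9. The keratins themselves differed between the libraries: Krt15 stood at 7795 and 1066 in cluster 4. Krt14 stood at 368.5 and 4908 in cluster 13 and at 133 and 3859 in cluster 9. Clusters 4, 13 and 9 can thus hold different mixtures of cell states in the 2 libraries. Cluster 12 was labelled B cell, yet its dendritic and Langerhans markers summed to 39796 and 23338 and the 1 B cell marker in the table to 6.54 and 5.25. It is called by its number. Clusters 6 and 10 were of low depth, with medians from 772 to 1207 UMIs per cell.

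Of the members, 9 of 10 lie on chromosome 17 of mm10 between positions 33915899 and 36032855, a stretch of 2.12 Mb, and are annotated as protein-coding genes. Tapbp (33915899 to 33929292) and H2-K1 (33996017 to 34000347) lie at its start, followed by Psmb9 (34181987 to 34187764), Tap1 (34187553 to 34197225), Psmb8 (34197721 to 34201454) and Tap2 (34203527 to 34216321). H2-D1 (35262730 to 35267499), H2-Q4 (35379617 to 35385290) and H2-T23 (36029773 to 36032855) follow. B2m lies on chromosome 2 from 122147686 to 122153083. Psmb9 and Tap1 run in opposite directions and overlap at their starts.

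The promoters of the heavy chains and B2m hold short motifs known from NF-kB and interferon signalling, and they are shown so that the heavy chains and B2m can be compared. The part of the motifs in the levels below was not tested. The RefSeq promoter table (GRCm38.p6, 250 bases before the start site searched on both strands) had an entry for 9 members, all but Tap2. The kB motif was in 4 of the 9 (H2-K1, H2-D1, H2-Q4 and B2m) and in 8.23% of all 27025 genes with a promoter. An exact match to the interferon-stimulated response element, written as GAAA, any 2 bases and GAAA, was in 2 (H2-T23 and B2m) and in 3.46% of all. Near matches were not searched, so the other promoters are not shown to lack such an element. Capitals mark these motifs, and each run is 30 bases on the gene's own strand.
H2-K1: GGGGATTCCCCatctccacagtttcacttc
H2-D1: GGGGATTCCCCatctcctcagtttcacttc
H2-Q4: GGGGATTTCCCatctccccagtttcacttc
B2m: GAAACTGAAAatgGGAAAGTCCCtttgtaa
H2-T23: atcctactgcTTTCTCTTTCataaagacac
The runs lie at chr17:34000429-34000458 (H2-K1, minus strand), chr17:35262923-35262952 (H2-D1, plus), chr17:35379443-35379472 (H2-Q4, plus), chr2:122147548-122147577 (B2m, plus) and chr17:36032806-36032835 (H2-T23, minus). The H2-K1 and H2-D1 runs differ at 1 of 30 bases, and the H2-Q4 run differs from each at 2. In B2m the interferon element precedes the kB motif, and in H2-T23 it reads on the opposite strand. Of the other motifs searched, CCAAT was in 8 members and 37.5% of all. TGACNNNGC, the core of the antioxidant response element that NRF2 binds, was in 1 (H2-K1) and 11.5% of all. These matches describe letters in a window and are not shown to be occupied sites.

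The members took 0.135% of control UMIs (41165) and 0.267% of Keap1 cKO UMIs (69604). The libraries differed in their cells: the Keap1 cKO library had 378 and 163 cells in the T cell clusters 3 and 11, against 59 and 58 in the control, and 422 against 848 epithelial cells. Levels also differed within clusters, as given below, and what each adds to this sum was not separated. Further comparisons were made within clusters or cell classes.

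In the control the order of cell types was much the same for most members. Lymphocytes and endothelium stood at the top and epithelial clusters 4, 13 and 9 at the bottom. Endothelial cluster 8 stood below myeloid cluster 2 in the Keap1 cKO library for some members, such as B2m (1079 against 1376 CPM) and Psmb8 (122 against 205). H2-K1, a classical heavy chain, stood in the control at 2565 CPM in T cell cluster 11, 1964 in endothelial cluster 8, 1936 in T cell cluster 3 and 814 in myeloid cluster 2. It was 305 and 307 in fibroblast clusters 1 and 5, and 141, 131 and 104 in epithelial clusters 13, 9 and 4. The intervals of clusters 8 and 3 overlapped, as did those of clusters 1 and 5, so these neighbours were not told apart. In the Keap1 cKO library the order was 1838 in cluster 11, 1274 in cluster 3, 1231 in cluster 8, 1081 in cluster 2, 408 and 374 in clusters 1 and 5, and 290, 239 and 66.6 in clusters 4, 13 and 9. Of these 3 epithelial clusters, cluster 9 was the lowest in the Keap1 cKO library and cluster 4 the lowest in the control. Epithelial clusters 10 and 14 did not share this low place: H2-K1 stood at 275 and 736 in low-depth cluster 10 and at 455 and 765 in cluster 14.

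Tapbp, which encodes tapasin, was spread more evenly over the non-epithelial cells. Its control levels were 218 in endothelial cluster 8, 173 and 164 in fibroblast clusters 5 and 1, 164 in T cell cluster 11 and 149 in myeloid cluster 2. In T cell cluster 3 it was 81.2. Psmb8, an immunoproteasome subunit, ran from 615 in control T cell cluster 11 to 41.1 in fibroblast cluster 1, 5.39 in epithelial cluster 4 and 1.67 in epithelial cluster 13. No Psmb8 UMI was found in the 114 control cells of epithelial cluster 9, which allows up to 8.32 CPM, and 9 UMIs (9.22 CPM) were found in the 140 Keap1 cKO cells.

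**Figure D1:**
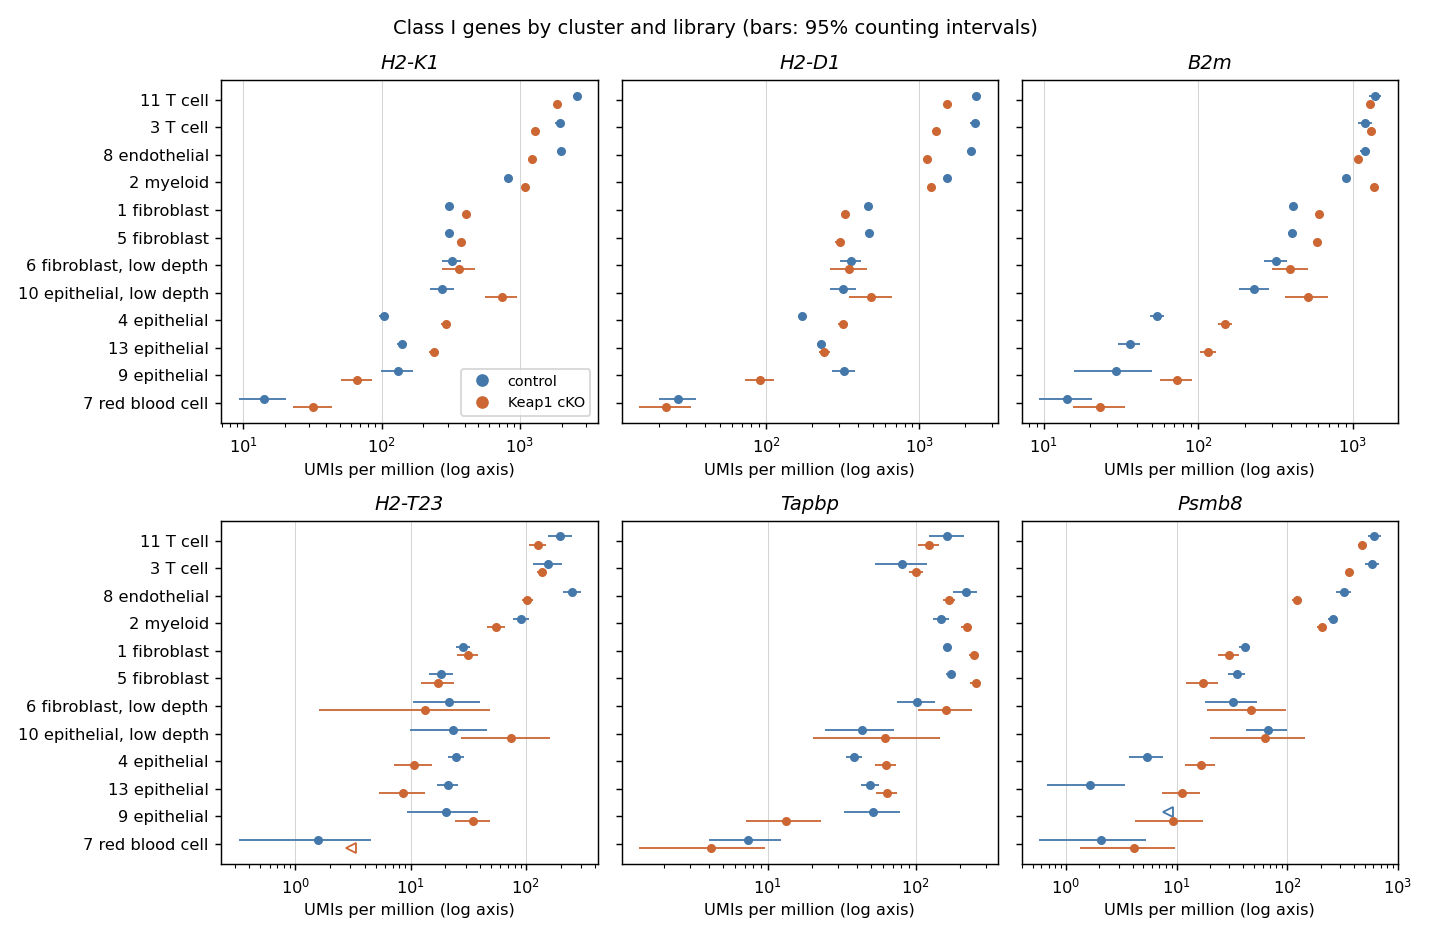
Levels of 6 class I genes in 12 clusters, in UMIs per 1000000 (CPM) on a log axis. Blue points are the control library, orange points the Keap1 cKO library, bars are exact 95% counting intervals and open triangles mark the upper end of the interval where no UMI was found. For most of these genes T cells and endothelium lie at the top of the control range and epithelial clusters 4, 13 and 9 and red blood cells at the bottom. Tapbp lies lower in T cell cluster 3 (81.2 in the control), and B2m is highest in myeloid cluster 2 (1376) in the Keap1 cKO library. Low-depth cluster 10 lies higher (H2-K1 at 736 in the Keap1 cKO library), and H2-K1 and B2m in epithelial clusters 4 and 13 lie higher in the Keap1 cKO library.

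Cluster 12 was read with few control cells (34 against 178). H2-K1 stood there at 850 (710 to 1010) and 837 (785 to 892), and B2m at 1334 and 1146. Psmb8 stood at 517 and 499, in the Keap1 cKO library the highest level among the clusters with at least 50 cells, though its interval overlapped that of T cell cluster 11. Neutrophil-marked cluster 17, with 4 control and 56 Keap1 cKO cells, had B2m at 1013 and Psmb8 at 75.1 in the Keap1 cKO library. The myocytes of cluster 19 (17 and 14 cells) held no H2-K1 UMI in either library, which allows up to 108 and 106 CPM. These limits reach the level of control epithelial cluster 4 (104), so absence is not shown.

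In epithelial cluster 4 most of the members, and in cluster 13 fewer, were at least 1.5-fold higher in the Keap1 cKO library, while the nonclassical heavy chain H2-T23 was lower in both. In cluster 4 (313 and 93 cells) 8 members were at least 1.5-fold higher and 2 lower, against 18.9% and 18.2% of the 10956 genes compared there. The median of the 10 log2 ratios was 1.05, and that of all genes 0.00. In cluster 13 (134 and 61 cells) 4 of the 9 members compared were higher and 1 lower, against 14.3% and 15.4% of 9875 genes, with a median of 0.52 against -0.03. With 10 genes these counts are small and describe only these libraries.

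Among the heavy chains, H2-K1 differed most in cluster 4. Its level was 104 (677 UMIs) in control cells and 290 (759 UMIs) in Keap1 cKO cells, giving 1.48 (1.33 to 1.63) on the log2 scale. The median cell stood at 74.3 and 221 CPM, and the upper quartile at 141 and 343, so the middle of both distributions was shifted and not only a few cells. In cluster 13 H2-K1 stood at 141 and 239, a ratio of 0.77 (0.60 to 0.93), with median cells at 130 and 206. H2-D1, the other classical heavy chain, stood at 171 and 317 in cluster 4 (0.89, 0.76 to 1.02) but at 228 and 240 in cluster 13 (0.07, -0.08 to 0.22), where the libraries did not differ beyond counting error.

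The nonclassical chains went apart. H2-Q4, a Qa-region heavy chain, had 13 and 14 UMIs in cluster 4, a log2 ratio of 1.42 (0.22 to 2.63). H2-T23, which encodes Qa-1, the ligand of the CD94/NKG2 receptors of natural killer cells, stood at 24.8 and 10.7 in cluster 4 (-1.21, -1.84 to -0.62). It stood at 20.9 and 8.68 in cluster 13 (-1.27, -2.03 to -0.57). In both clusters it was the member with the most negative ratio. The last 500 bases of its transcript shared 38.1% of their 50-base words with other genes, as did 33.7% for H2-Q4, against 9.5% for H2-D1, 0.4% for H2-K1 and none for the other 6 members, so the counts of H2-T23 and H2-Q4 are the less certain.

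B2m, the light chain that all of these heavy chains need to reach the surface, was higher in every epithelial cluster compared. It stood at 54.3 and 149 in cluster 4 (1.45, 1.24 to 1.67) and at 35.9 and 115 in cluster 13 (1.68, 1.39 to 1.98). In cluster 9 it stood at 29.3 and 72.8 (1.31, 0.45 to 2.29) and in cluster 10 at 231 and 511 (1.15, 0.57 to 1.71). Median cells stood at 38.1 and 99.1 in cluster 4 and at 36.0 and 92.8 in cluster 13.

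Of the loading genes, Tapbp stood at 38.2 and 62.8 in cluster 4 (0.72, 0.42 to 1.01) and 49.0 and 63.6 in cluster 13 (0.38, 0.07 to 0.68). The subunits of the TAP transporter differed in cluster 4. Tap1 had 66 and 40 UMIs there (0.59, -0.01 to 1.18) and Tap2 had 57 and 12 (-0.93, -1.97 to -0.02). In cluster 13 both intervals included 0, with ratios of 0.52 (-0.26 to 1.28) and -0.04 (-1.10 to 0.96).

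Psmb8 and Psmb9, which replace the constitutive subunits Psmb5 and Psmb6 in the immunoproteasome, were low in epithelial clusters 4 and 13 and higher there in the Keap1 cKO library. Psmb8 stood at 5.39 and 16.5 in cluster 4 (1.61, 0.93 to 2.30) and at 1.67 and 11.2 in cluster 13 (2.74, 1.51 to 4.19), from 7 and 27 UMIs. Psmb9 stood at 4.31 and 9.95 in cluster 4 (1.21, 0.38 to 2.03) and at 2.38 and 6.61 in cluster 13 (1.47, 0.25 to 2.78). These are few molecules: 68 of the 93 Keap1 cKO cells of cluster 4 had no Psmb8 UMI. In epithelial clusters 10 and 14 Psmb8 was at higher levels and not higher in the Keap1 cKO library, at 66.5 and 62.4 (-0.09, -1.84 to 1.34) in cluster 10 and at 189 and 166 in cluster 14.

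**Figure D2:**
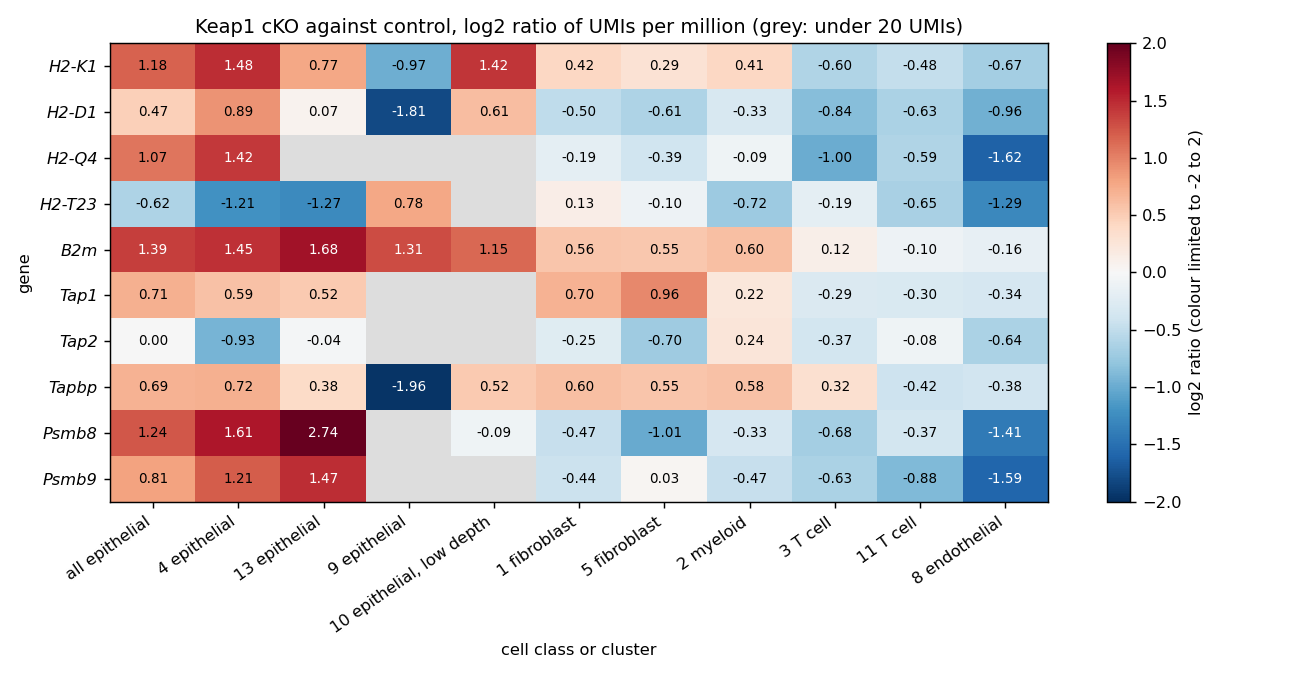
Log2 ratio of Keap1 cKO over control levels (CPM) for the 10 members in the epithelial class and in 10 clusters; grey cells had under 20 UMIs. In epithelial clusters 4 and 13 the measured ratios are above 0 (red) except for H2-T23 and Tap2, and blue fills endothelial cluster 8 and most of T cell clusters 3 and 11.

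Shares of cells with a UMI, given here for H2-K1, B2m and Psmb8, had the same direction once each cell was thinned to 5000 UMIs. In cluster 4 H2-K1 was found in 30.5% (25.5 to 36.0) of 311 control cells and 62.9% (50.5 to 74.1) of 70 Keap1 cKO cells, and B2m in 19.9% and 48.6%. Unthinned, the shares were 74.8% and 81.7% for H2-K1, with median depths of 20487 and 26254 UMIs. The unthinned share for H2-D1 was lower in the Keap1 cKO library, 93.6% and 78.5%, though its level was higher. In cluster 13 B2m was found in 18.3% of 131 and 46.3% of 54 thinned cells, and Psmb8 in 0.763% and 7.41%. The Psmb8 shares rest on few cells: even unthinned, 127 of 134 control cells of cluster 13 had no Psmb8 UMI. Thinning left out 2 and 23 cells of cluster 4 and 3 and 7 of cluster 13. Red blood cells, which should hold little class I RNA of their own, gave the background of free RNA: H2-K1 in 7.30% of 178 and 11.1% of 117 thinned cells, B2m in 5.62% and 8.55%, and Psmb8 in 0 of 178, which allows a share of up to 2.05% by the exact interval, and 1.71%. Their median depths were 10831 and 10271.5 UMIs.

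Per cell, red blood cells held 0.152 and 0.325 UMIs of H2-K1, against 2.16 and 8.16 in cluster 4 and 4.41 and 9.49 in cluster 13. For Psmb8 they held 0.0225 and 0.0417, against 0.112 and 0.462 in cluster 4 and 0.0522 and 0.443 in cluster 13. Several immune marker lists were also higher in epithelial clusters 4 and 13 of the Keap1 cKO library. Their part in the result was not tested beyond leaving out cells with leukocyte UMIs, as follows. The 6 T cell markers, all with UMIs in both libraries, summed to 6.00 and 58.9 CPM in cluster 4 and to 7.61 and 66.1 in cluster 13. The 3 pan-leukocyte markers summed to 10.6 and 39.8 in cluster 4 and to 7.85 and 45.0 in cluster 13. The 4 gamma-delta T cell markers summed to 0.462 and 52.8 in cluster 4, where Trdv4 and Cd163l1 were at 0 in the control. The neutrophil list summed to 0.616 and 4191 in cluster 4, where Cxcr2 and Ly6g had no UMI in either library. What each of its other genes, S100a8 among them, added to this sum was not separated. The macrophage and monocyte list summed to 82.8 and 60.5 in cluster 4 but to 50.9 and 119 in cluster 13. The dendritic and Langerhans list, which includes Cd74, summed to 46.6 and 107 in cluster 4 and to 35.9 and 126 in cluster 13. The cytotoxic list summed to 1.85 and 1.53 in cluster 4 and to 2.38 and 0.826 in cluster 13. In the cells of cluster 4 with no UMI of Ptprc, Cd3e, Cd3g, Lyz2, Cd74 or Tyrobp (115 and 23 cells), a choice made after the data were seen, H2-K1 stood at 89.1 and 182 (1.03, 0.44 to 1.58). H2-D1 stood there at 155 and 294 (0.93, 0.47 to 1.36) and B2m at 51.1 and 118 (1.20, 0.44 to 1.90). The intervals of Tapbp (0.30, -1.06 to 1.41) and H2-T23 (-0.85, -3.94 to 1.08) included 0 in those cells. Psmb8 and Psmb9 had 8 and 2, and 9 and 0 UMIs in those cells, too few to compare. H2-K1 and B2m rested on 31 and 20 UMIs in the 23 Keap1 cKO cells. Shallow cells pass this choice more easily, and depth was not matched between the libraries, so it is a limited check. Whether the Cd74 UMIs of the cells left out came from leukocytes was not tested.

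Over all 848 and 422 epithelial cells, 7 members were at least 1.5-fold higher and 1 lower, against 17.5% and 15.8% of 12638 genes, with a median log2 ratio of 0.76 against -0.02. B2m stood at 58.3 and 152 (1.39), Psmb8 at 204 and 261 UMIs (1.24, 0.97 to 1.51) and H2-K1 at 140 and 317 (1.18, 1.09 to 1.26). H2-Q4 had a ratio of 1.07, Psmb9 0.81, Tap1 0.71, Tapbp 0.69, H2-D1 0.47, Tap2 0.00 and H2-T23 -0.62. This sum depends on its mixture. In the 383 and 146 epithelial cells without a UMI of the 6 leukocyte genes the median was -0.34 with 1 member higher and 2 lower, and Psmb8 turned to -0.58 and Psmb9 to -0.86, while H2-K1 was 0.48 and B2m 1.31. Of these 146 Keap1 cKO cells, 78 were of cluster 9, and only 23 of cluster 4 and 4 of cluster 13. Cluster 14, with 42 and 40 cells and a Lyz2 count of 35 and 2686 UMIs, had the highest H2-K1 of the epithelial clusters (455 and 765). Without it the ratio of H2-K1 was 0.96 and that of Psmb8 1.14.

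Cluster 9, whose cells are shallow (medians of 1441.5 and 2456.5 UMIs), went the other way for the heavy chains. H2-D1 stood at 320 and 91.2 (-1.81, -2.21 to -1.42), H2-K1 at 131 and 66.6 (-0.97, -1.51 to -0.44) and Tapbp at 51.9 and 13.3 (-1.96, -3.06 to -0.92). Only 5 members had enough UMIs, 2 higher (B2m and H2-T23) and 3 lower, against 19.8% and 30.2% of 4713 genes. The neutrophil list summed to 361 and 21121 in this cluster, where S100a8 alone of the list had UMIs in the control. Retnlg and Csf3r had no UMI there in either library. Krt4 stood at 28451 and 2645. The part of these genes in the result was not tested. Low-depth cluster 10 had 3 of 5 members higher and none lower, against 26.3% and 21.9% of 2681 genes, led by H2-K1 at 275 and 736 (1.42, 0.93 to 1.91). Markers of other cells differed there too: T cell markers summed to 280 and 1160 and pan-leukocyte markers to 173 and 536. Endothelial markers summed to 8.67 and 412 and red blood cell genes to 72125 and 9093. Of the neutrophil list only S100a8 had UMIs there, at 2.89 and 2532. Their part in the result was not tested. Scaling by the median of gene ratios moved all genes by -0.27 in cluster 9 and 0.11 in cluster 10, and less than 0.1 in the other clusters compared.

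In endothelial cluster 8 (53 and 203 cells) the direction was the opposite of that in epithelial cluster 4 for all members but H2-T23 and Tap2, which were lower in both. For Tap1 the interval included 0 in both clusters (-0.34, -0.89 to 0.24 in cluster 8). Of the members, none was at least 1.5-fold higher in cluster 8 and 7 were lower, against 26.1% and 9.84% of 10055 genes. Their median was -0.82, against 0.17 for all genes. Psmb9 stood at 165 and 54.9 (-1.59, -1.98 to -1.19), Psmb8 at 325 and 122 (-1.41, -1.68 to -1.14) and H2-Q4 at 137 and 44.7 (-1.62, -2.05 to -1.18). H2-T23 stood at 252 and 103 (-1.29, -1.59 to -0.98), H2-D1 at 2182 and 1118 (-0.96) and H2-K1 at 1964 and 1231 (-0.67). B2m was nearly level, at 1204 and 1079 (-0.16, -0.28 to -0.03). The endothelial markers were alike in the libraries, 3694 and 4248. The dendritic and Langerhans list, which includes the class II genes Cd74 and H2-Eb1, summed to 1418 and 515, the muscle and pericyte list to 776 and 127, and the T cell list to 80.7 and 492. Their part in the result was not tested.

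The T cell clusters were lower too, by less. In cluster 3 (59 and 378 cells) 5 members were lower and none higher, against 14.5% and 21.6% of 9259 genes, with H2-Q4 at 81.2 and 40.7 CPM. The log2 ratios of the others were -0.84 for H2-D1, -0.68 for Psmb8, -0.63 for Psmb9 and -0.60 for H2-K1. In cluster 11 (58 and 163 cells) 4 were lower and none higher, against 9.34% and 23.2% of 7421 genes, led by Psmb9 at -0.88 (-1.30 to -0.44). The intervals of B2m included 0 in both (ratios of 0.12 and -0.10). The make-up of these clusters differed: gamma-delta T cell markers summed to 1627 and 5581 in cluster 3, cytotoxic markers to 2353 and 629 in cluster 11, and red blood cell genes to 51289 and 1060 in cluster 11.

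Fibroblasts and myeloid cells showed mixed, smaller differences. In fibroblast cluster 1 (545 and 187 cells) 2 members were higher and none lower, against 13.9% and 16.1% of 11522 genes: Tap1 at 0.70 (0.22 to 1.17) and Tapbp at 0.60 (0.46 to 0.74). In fibroblast cluster 5 (271 and 126 cells) 1 was higher (Tap1, 0.96) and 3 lower, against 13.2% and 18.2% of 10549 genes. The lower ones were Psmb8 at -1.01 (-1.57 to -0.49), Tap2 at -0.70 and H2-D1 at -0.61. In myeloid cluster 2 (169 and 356 cells) 1 member was higher (B2m, 905 and 1376, 0.60) and 1 lower (H2-T23, 91.1 and 55.3, -0.72), against 15.8% and 10.9% of 9660 genes. In all 3 clusters H2-K1 had a positive ratio (0.42, 0.29 and 0.41) and H2-D1 a negative one (-0.50, -0.61 and -0.33), with every interval clear of 0.

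The balance of the classical heavy chains differed in 1 direction in every cluster compared, and this comparison was chosen after the values were seen. H2-D1 UMIs per H2-K1 UMI were lower in the Keap1 cKO library in 12 of the 12 clusters with at least 50 cells in each library, with separate intervals in 8. The log2 change ran from -1.45 to -0.14 with a median of -0.71. The ratio stood at 1.52 and 0.803 in fibroblast cluster 1, 1.85 and 1.11 in myeloid cluster 2, 1.64 and 1.09 in epithelial cluster 4, and 1.11 and 0.908 in endothelial cluster 8. Red blood cells, read here for free RNA, had 1.89 (1.16 to 3.13) and 0.692 (0.408 to 1.16). B2m per UMI of both heavy chains together was higher in 12 of 12 clusters, with separate intervals in 8, as in fibroblast cluster 1 (0.536 and 0.823), T cell cluster 3 (0.284 and 0.512) and epithelial cluster 13 (0.0975 and 0.241). The animals were hybrids of strains that carry different class I alleles, reads were aligned to mm10, which is C57BL/6J sequence, and the labels do not state the haplotype of each library. The genotype at Keap1, the MHC haplotype and the library cannot be told apart here.

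**Figure D3:**
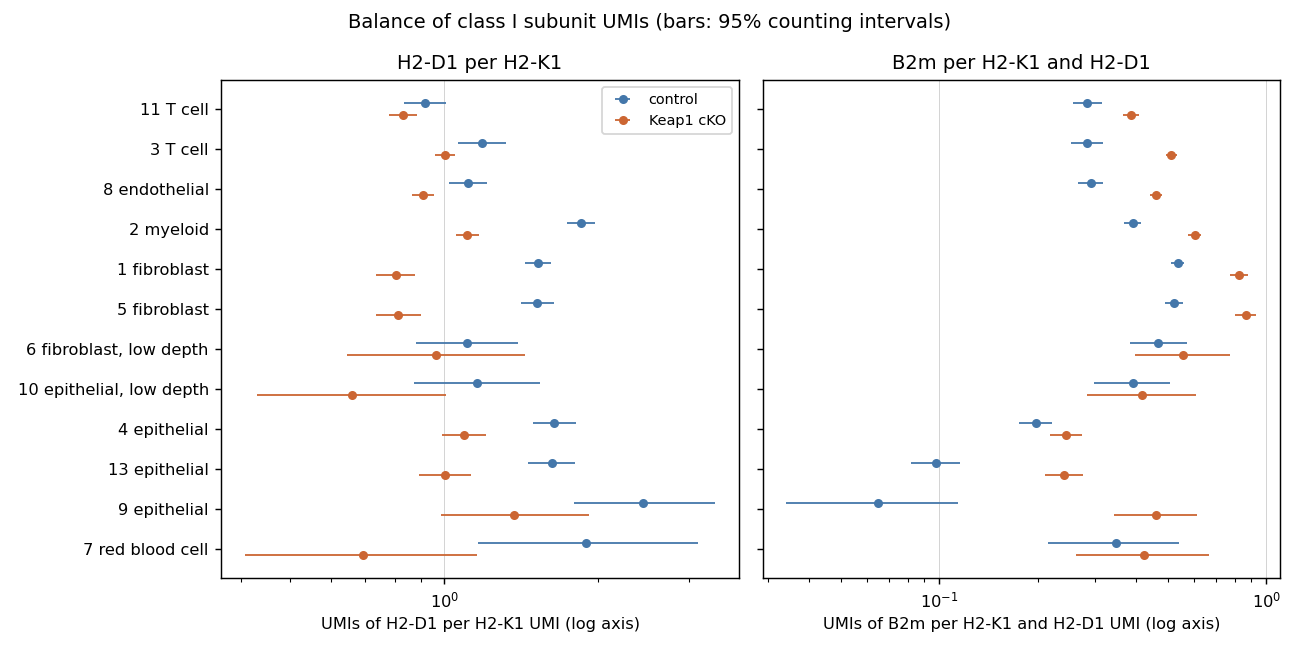
Left, H2-D1 UMIs per H2-K1 UMI, and right, B2m UMIs per UMI of H2-K1 and H2-D1 together, in 12 clusters on log axes, with exact 95% counting intervals. The Keap1 cKO library (orange) lies left of the control (blue) in all 12 clusters on the left and right of it in all 12 on the right.

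Psmb8 UMIs per UMI of its constitutive counterpart Psmb5 were fewer in epithelial clusters 4, 13 and 9 than in the clusters of other cell types with at least 50 cells in each library, and the libraries differed in opposite directions in epithelial clusters 4 and 13 and in endothelium. The ratio stood at 0.0225 (0.0156 to 0.0314) and 0.0508 (0.0365 to 0.0690) in cluster 4 and at 0.00554 and 0.0340 in cluster 13. In epithelial cluster 10 it was 0.319 and 0.417, beside 0.348 and 0.341 in fibroblast cluster 1. In endothelial cluster 8 the values were 2.40 (1.82 to 3.21) and 1.07, and in T cell cluster 11 they were 4.76 and 2.81. Psmb10, the last of the inducible catalytic subunits and encoded outside the MHC, gave 0.255 and 0.467 per Psmb7 in cluster 4 and 2.22 and 0.605 in cluster 8. Psmb9 per Psmb6 stood at 1.07 and 0.447 in cluster 8. Over the epithelial cells without leukocyte UMIs, Psmb8 per Psmb5 was 0.0608 and 0.0275 and Psmb9 per Psmb6 0.0276 and 0.0127, the reverse of the order in all epithelial cells (0.0571 and 0.103, 0.0271 and 0.0420). Psmb10 per Psmb7 kept its order there, at 0.253 and 0.400. No intervals were computed for the ratios in these cells. The mixture of clusters differed there: cluster 9 gave 98 of the 383 control cells and 78 of the 146 Keap1 cKO cells. Psmb8 per Psmb5 was 0 and 0.0174 over all cells of cluster 9. The part of this mixture in the reversed order was not tested.

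**Figure D4:**
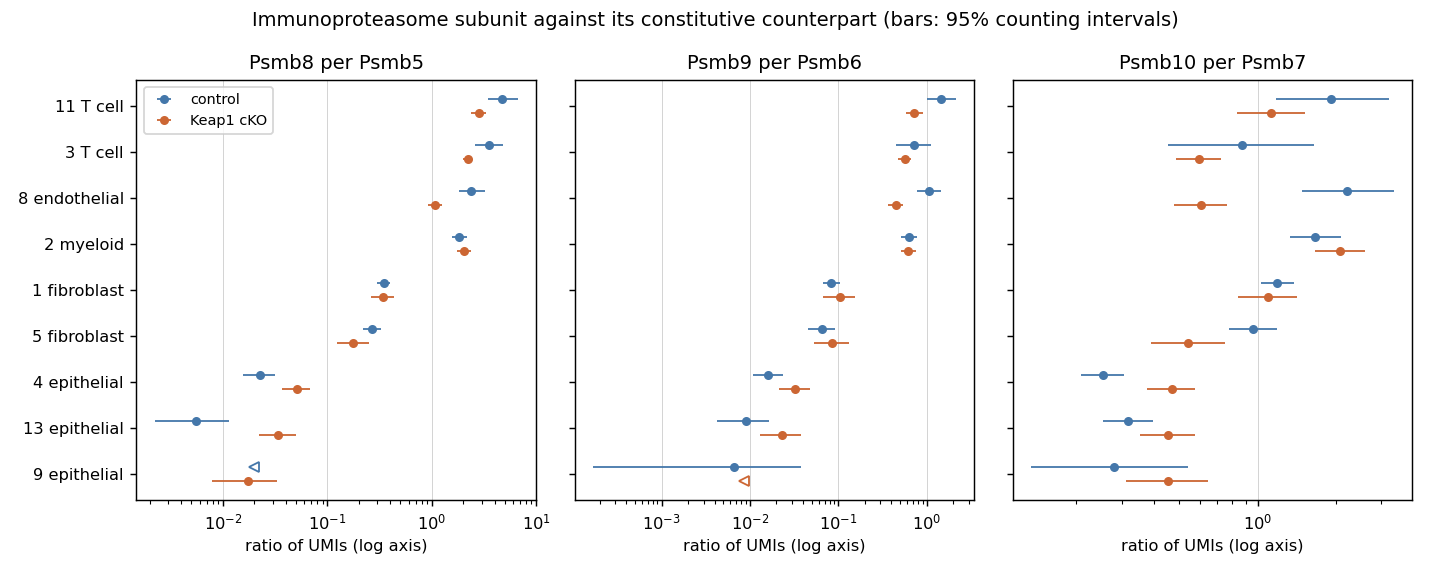
UMIs of each inducible proteasome subunit per UMI of its constitutive counterpart in 9 clusters, on log axes with exact 95% counting intervals; open triangles mark upper ends where no UMI was found. Psmb8 per Psmb5 is above 1 in T cells, endothelium and myeloid cells and at most 0.0508 in epithelial clusters 4, 13 and 9.

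Other genes of the pathway were read from fixed lists, beside the 17.5% of all genes that were higher and 15.8% that were lower in the epithelial class. There 8 of 14 other heavy chain and class I-like genes could be compared, with 3 at least 1.5-fold higher and 1 lower and a median log2 ratio of 0.56. H2-Q6 and H2-Q7, close relatives of H2-Q4 in the Qa region, stood at 1.02 and 4.43 (2.12, 1.18 to 3.14) and at 3.92 and 14.2 (1.86, 1.37 to 2.36). H2-T22, a ligand of some gamma-delta T cells, had a ratio of 0.58 (0.28 to 0.88). Fcgrt, the neonatal Fc receptor, which also pairs with B2m but carries no peptide, stood at 17.1 and 6.04 (-1.51).

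Of 5 loading genes 1 was higher and none lower: Tapbpl, a tapasin relative, at 0.74. The chaperones Calr and Pdia3 had ratios of 0.54 (0.46 to 0.61) and 0.27. Of 3 immunoproteasome and activator genes Psmb10 was higher at 1.01 (0.79 to 1.24), while Psme1 and Psme2, the PA28 activator, stood at 0.16 and 0.22. The constitutive subunits Psmb5, Psmb6 and Psmb7 stood at 0.39, 0.18 and 0.20.

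Of 9 regulators compared, 3 were higher and 1 lower. Irf1, an interferon-induced activator of class I and immunoproteasome genes, stood at 13.4 and 22.3 (0.73, 0.42 to 1.04), and Nfkb1, a subunit of NF-kB, at 38.8 and 61.7 (0.67, 0.49 to 0.85). Irf8 had 10 and 14 UMIs (1.37, 0.10 to 2.70). Irf2 stood at 0.12. Rfx5, a subunit of the complex on class I and II promoters, stood at 8.86 and 5.10 (-0.80). Nlrc5, the class I transactivator, had 7 and 12 UMIs, too few to compare. Of 8 interferon and receptor genes 2 were higher and none lower: Ifngr2, a chain of the interferon gamma receptor, at 24.8 and 46.3 (0.90, 0.68 to 1.12), and Socs1, its feedback inhibitor, at 4.29 and 7.51 (0.81, 0.26 to 1.36). Jak1 stood at 0.02. These lists hold few genes each, so nothing particular to them is read from their counts. In cluster 4 Irf1 had a ratio of 1.28 (0.64 to 1.92), and in endothelial cluster 8 Irf1 had -1.16 (-1.62 to -0.69) and Psme1 -1.06. The lists as a whole were mixed in cluster 8: of 10 regulators 2 were higher and 3 lower, and of 7 interferon and receptor genes 2 were higher and none lower, with a median of 0.14.

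Interferon gamma itself was rare and not higher in the Keap1 cKO library. Ifng had 108 UMIs in 36 control cells and 65 UMIs in 26 Keap1 cKO cells. Most came from T cell cluster 11, with 85 UMIs in 27 of 58 control cells and 51 UMIs in 19 of 163 Keap1 cKO cells, 244 and 43.1 CPM. Cluster 3 held 4 and 3 Ifng UMIs. Ifnb1, a type I interferon, had 2 and 0 UMIs in all.

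Across 27 groups of at least 50 cells (a cluster in 1 library), genes whose levels followed the mean of the members most closely, among 6934 genes, included Itpkb, Cdc42se2, Tmsb4x, Elmo1, Rnf166, Tmem160 and Nedd9. Their Pearson correlations of log2(level + 10) ran from 0.96 for Itpkb to 0.93 for Nedd9. Among the members the correlation with their own mean ran from 0.98 for H2-K1 to 0.76 for Tapbp. The groups share libraries and the depth and ambient RNA of each.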

How the data were processed

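Polyadenylated RNA was counted with 10x 3′ chemistry, per the labels' protocols; the submitters' processing notes name Cell Ranger 6.0.1, Seurat 4.0.2, R 4.1.1 and mm10. The deposited table holds natural log values that the authors scaled to 10000 per cell, as read from the values; 100% of positive values gave whole UMI counts within 0.01, and sums used those counts. Cell types and cluster numbers are the authors' deposited labels. Names were found in the annotation for 98.5% of genes. UMIs were summed per cluster and library, with exact Poisson, conditional binomial or Clopper-Pearson intervals at 95% (Python 3.11.15, scipy 1.17.1). Intervals were tested on simulated data for the epithelial comparison (12473 genes): 95.77% held the true ratio. The simulated counts held counting error only, so this checks the calculation and not variation between cells or libraries. Doublets were not removed, and all cells have at least 500 UMIs. The members, gene lists and rules were chosen with earlier results of these data known. All members are named; of other genes, the 2 with most UMIs and the 2 with the largest ratio of each list in the epithelial class, plus Nlrc5, Irf1, Ifng and the proteasome pairs; 1 gene that met these rules is not reported here. The thinning depth was chosen after the data were seen. H2-Ea and protein sequences were not analysed here. Reads of near-identical class I genes may be split by the authors' counting.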

Additional observations from a re-analysis of the deposited data

Results flagged for a closer look

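Several members had ratios of opposite sign in different clusters, with intervals on opposite sides of 0. The difference between clusters was not tested, since each genotype has 1 library. H2-K1 had a log2 ratio of 1.48 in epithelial cluster 4 and -0.97 in epithelial cluster 9. H2-D1 had 0.89 and -1.81, and Tapbp 0.72 and -1.96, in the same clusters. H2-Q4 had 1.42 in cluster 4 and -1.62 in endothelial cluster 8. Psmb8 had 2.74 in epithelial cluster 13 and -1.41 in cluster 8, and Psmb9 had 1.47 and -1.59. The control level of Psmb8 in cluster 13 came from 7 UMIs, 1.67 CPM (0.67 to 3.43). It was not told apart from the level in control red blood cells, 2.09 (0.57 to 5.34), so the size of this ratio is uncertain.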

How the results depend on the processing

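For the 10 cluster comparisons, all 51 recomputed medians stayed between the median lower and the median upper limit of the members' intervals. These limits are wide, as in cluster 1 (-0.43 to 0.51), and are not an exact interval of the median, so this is a weak check. The sum over all epithelial cells was less stable. Its count of higher and lower members (7 and 1) was 4 and 0 with a fold of 2 and 4 and 0 with every cell weighted the same, where H2-T23 turned to 0.20. Cells without UMIs of 6 leukocyte genes gave a median of -0.34, with 1 higher and 2 lower, and turned H2-D1 to -0.083, Tapbp to -0.34, Psmb8 to -0.58 and Psmb9 to -0.86. Equal weights for the epithelial clusters gave a median of 0.34 and 0 lower, and turned H2-D1 to -0.058, Tap1 to -0.39 and Tapbp to -0.086. The count of lower members was 2 without clusters 10 and 14 or without cluster 14, and 0 without cluster 4, 13 or 15. The cause was not tested. H2-K1 stayed positive in the epithelial sum under each alternative run, from 0.48 to 1.34, and B2m from 1.09 to 1.47. No paired analysis was possible because each genotype has 1 library. Depth limits Psmb8, Psmb9, Tap1, Tap2 and H2-Q4 in epithelium, where few molecules were counted.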
